A study of Mus musculus with 12 samples.

Results

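Chromatin accessibility of 3 NIH/3T3 lines that lack an intact Actg1 gene was compared, as one set, with that of wild-type cells. The members are 12 ATAC-seq libraries, all 12 of the series, with 3 labelled biological replicates in each of 4 groups. For each region, the mean of the PTC1, PTC2 and LD group means was set against the wild-type (WT) group mean on the log2(value + 1) scale. Of 81995 regions, 81985 had a mean of 5 or more over the libraries and were tested, and 10 were left out. The region just inside that limit had a mean of 5.0 and the one just outside a mean of 4.92. The regions of interest are those in which all 3 mutant lines moved the same way.

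All 4 groups are NIH/3T3 cells, which are mouse fibroblasts that grow without limit, with no treatment named in the labels. WT carries no edit. PTC1 has 1 nt inserted after position 280 (Actg1 c.280_281insT, and a second form labelled c.[280A>G; 280_281insT]), which puts its early stop in exon 3. PTC2 (Actg1-202:r.1096_1097insn[4036]) has 4036 nt inserted after position 1096 and its early stop in exon 5. LD is a deletion of the full Actg1 locus. The alleles were made with CRISPR-Cas9 to ask what mRNA degradation adds to transcriptional adaptation. Each sample held 25000 cells, transposed for 30 min at 37 °C. The labels name no separate clones, so each allele was taken as 1 line, and p-values measure the spread between libraries of a line and not between lines. With 1 WT line, a difference shared by the 3 mutants cannot be told apart from a feature of that WT line.

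Actg1 encodes cytoplasmic gamma-actin, which with beta-actin forms the filaments of the non-muscle cytoskeleton. Cells sense the pool of free actin monomer through the coactivators MRTF-A and MRTF-B, which bind monomer and otherwise join the factor SRF at CArG boxes of cytoskeletal and contractile genes. In ATAC-seq the transposase Tn5 cuts and tags open DNA, so that active promoters and enhancers collect more reads. In a bulk sample, fewer cells with an open region and less opening per cell cannot be told apart.

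The 10 fibroblast markers checked were read at the region listed nearest their start site. Among the strongest were Vim (group means 4749 to 5094 normalized reads), Col1a1 (1520 to 1626) and Fn1 (2036 to 2638). The weakest was Col3a1 (155 to 230.3), and Pdgfra differed between WT (271.3) and the mutants (450.3 to 544.3). Some markers of other cell types, such as Sox9 and Tubb3, had strong regions as well, so these values are no test of cell identity. No region lay over Actg1 itself. The nearest regions on either side, on chromosome 11, end at 120298089 and start at 120369661 (mm10), a gap of 71572 bp, so the deletion could not be checked from these values. The values of a library summed to between 31.29 and 34.8 M (mega), and the estimated reads in regions ran from 25.03 M in an LD library to 44.98 M in a PTC2 library.

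A region was called where limma's Benjamini-Hochberg adjusted p over all regions tested was under 0.05. In the mean of the 3 mutants, 19770 regions (24.1%) were higher than WT and 23069 (28.1%) lower. PTC1 alone was higher in 30.6% and lower in 31.2% of regions, PTC2 in 28.4% and 29.8%, and LD in 22.6% and 24.7%. Far fewer were called in each of the 3 lines in 1 direction, with 4048 higher (4.94%) and 5159 lower (6.29%). These make up 20.5% of the regions called higher in the mean and 22.4% of those called lower. The 3 comparisons share the WT libraries, so their overlap is a count and carries no separate support. The other calls in the mean were often carried by part of the lines. In 8866 regions (20.7% of the calls in the mean) 1 line alone was called, and in 5786 (13.5%) lines were called in opposite directions.

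Set beside the other genotypes, WT was the one with the fewest regions to itself. Regions in which 1 genotype was called apart from each of the other 3 numbered 9207 (11.2%) for WT, 25532 (31.1%) for PTC1, 18413 (22.5%) for PTC2 and 15543 (19.0%) for LD. PTC1 lay above each other genotype in 15.2% of regions and below in 16.0%. PTC2 lay above in 10.3% and below in 12.2%, and LD above in 8.85% and below in 10.1%. Against the mean of the other 3 genotypes, the regions called were 52.3% for WT, 66.9% for PTC1, 61.7% for PTC2 and 60.0% for LD. The difference between these counts was not itself tested. Regions that were high in 1 genotype and nearly closed elsewhere were few in WT, PTC2 and LD alike, and more in PTC1. With limits set after the data were seen, 2 regions had at least 40 in each WT library and at most 5 in all 9 mutant libraries, and 0 had the reverse, whereas 48 were that high in PTC1 and that low in the other 9 libraries, and 12 the reverse. The same counts were 0 and 10 for PTC2 and 0 and 12 for LD.

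**Figure D1:**
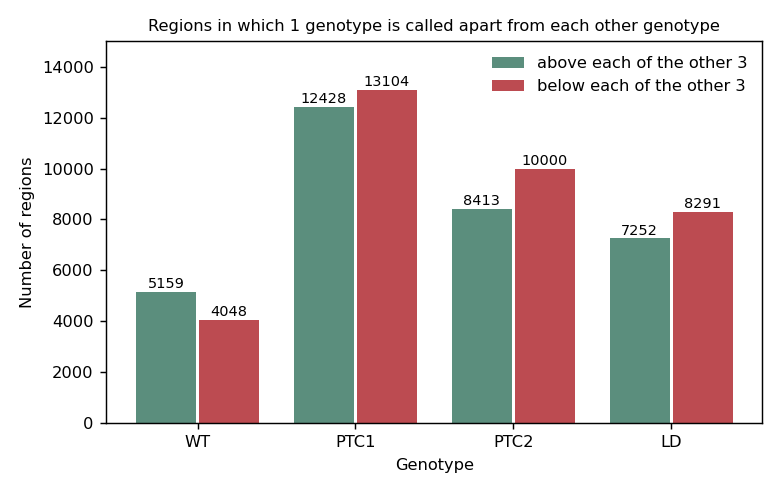
Number of regions (y axis) in which each genotype (x axis) was called above or below each of the other 3 genotypes. WT, whose bars are the regions lower (4048) and higher (5159) in WT than in every mutant line, has the shortest bars, and PTC1 the tallest, with 12428 above and 13104 below.

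In the principal components of the 12 libraries, WT stood farthest apart on the third. The first (47.16% of the variance) set PTC1 apart and the second (28.32%) PTC2. The third component (13.23%) separated WT, at 106.9 to 110.7, from PTC2 at 11.62 to 14.84, PTC1 at -34.52 to -31.2 and LD at -90.25 to -87.45. The mutants were therefore spread along this component as well, with LD farthest from WT. The median SD between the 3 line changes was 0.46 on the log2 scale over all regions, and the median absolute mean change was 0.32. The mean change exceeded the SD between lines in 36.1% of regions.

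With the line as the unit of replication (3 mutant line means against 1 WT line mean, limma), 0 regions were called. An unadjusted p under 0.05 was reached by 762 regions (0.929%), and all 762 were among those called in all 3 lines. The calls above thus rest on the spread between libraries of a line.

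Where the 3 lines agreed in direction, they mostly differed in size. Of the regions higher in all 3 lines, 2705 (66.8%) differed among the mutants by the moderated F test, and of those lower in all 3, 4170 (80.8%) did, beside 83.2% of all regions tested. Among the higher regions the median log2 change was 0.91 (PTC1), 0.97 (PTC2) and 0.78 (LD), and the median of the smallest of the 3 was 0.61. Among the lower regions the medians were -0.79, -0.93 and -0.67, and the median smallest change was -0.49. The change was largest in PTC2 in 44.7% of the higher and 44.5% of the lower regions, in PTC1 in 37.4% and 34.1%, and in LD in 17.9% and 21.4%. A log2 change of 1 or more in each line was found in 792 higher regions, and of -1 or less in 717 lower ones. All 9 mutant libraries lay above all 3 WT libraries in 3314 of the higher regions and below them in 4919 of the lower ones. Over all regions tested the 9 lay above in 5.24% and below in 8.28%.

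Like the regions tested as a whole, those called in all 3 lines lay mostly away from start sites. A listed gene was found for 26.9% of the higher and 25.2% of the lower regions, beside 30.5% of all regions. The share with its centre within 1000 bp of a start site was 12.2% and 9.92%, beside 15.2%. These differences were not tested. The regions that lost accessibility were strong in WT, with a median value of 393 beside 120 over all regions. Those that gained it were weaker in WT, with a median of 69.2. The WT values entered the choice of these regions, so this is a description.

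Sequences were read at promoters only. Those of regions away from start sites, which make up most of the shared changes, were not read, so the shares below describe promoters alone. In RefSeq's promoter table (GRCm38.p6, the build of mm10), 342 promoters lay under a region lower in all 3 lines and 509 under a region higher in all 3. The AP-1 motif TGANTCA, searched on both strands over the 250 bases before and 50 after the start, was in 16.7% of the former (57 promoters) and 8.06% of the latter (41). It was in 6.27% of promoters under any region tested and in 7.81% of all promoters of this length. The CArG box was in 2.75% of promoters under higher regions (14), in 1.75% under lower regions (6) and in 1.31% under any region tested. The GC box GGGCGG was in 55.0%, 59.1% and 66.3%. The TEAD motif GGAATG was in 12.8%, 14.6% and 12.0%, and the CRE TGACGTCA in 2.55%, 1.75% and 3.29%. A match describes the letters and shows no bound factor, and these shares were not tested.

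The promoters printed were chosen after the search, to show the matches it found, and not for the strength of the change. Other named genes had no such match: among the falls, Aff2 and Lce3c held none of the AP-1, CRE, TEAD and CArG motifs in the 250 bases before the start, and among the rises neither did Jph2 and Cnn1. The calls of Mmp3 and Xaf1 in all 3 lines were lost without some single libraries, given with their values below. Each line gives the 250 bases before the start site, 5′ to 3′ in the direction of the gene, in lower case with the motif in capitals. The first 3 belong to genes whose region fell in all 3 lines and hold 1 AP-1 match each, whose first base is 18, 46 and 38 bases before the start. The fourth, Myl9, rose in all 3 lines and holds a CArG box whose first base is 161 bases before the start. The last, Ldhb, rose in all 3 lines and has none of the AP-1, CRE, TEAD and CArG motifs in this window.
Slitrk6 (chr14:110755150-110755399, minus strand): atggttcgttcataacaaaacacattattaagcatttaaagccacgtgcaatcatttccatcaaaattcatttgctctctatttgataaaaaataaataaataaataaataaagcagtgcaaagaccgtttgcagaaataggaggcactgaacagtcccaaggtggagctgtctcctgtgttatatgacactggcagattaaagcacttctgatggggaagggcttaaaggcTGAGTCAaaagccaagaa
Mmp3 (chr9:7445572-7445821, plus strand): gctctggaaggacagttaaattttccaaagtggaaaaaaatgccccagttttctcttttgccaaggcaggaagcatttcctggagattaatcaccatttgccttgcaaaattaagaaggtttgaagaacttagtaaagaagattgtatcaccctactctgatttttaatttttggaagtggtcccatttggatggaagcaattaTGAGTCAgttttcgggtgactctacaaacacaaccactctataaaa
Xaf1 (chr11:72301379-72301628, plus strand): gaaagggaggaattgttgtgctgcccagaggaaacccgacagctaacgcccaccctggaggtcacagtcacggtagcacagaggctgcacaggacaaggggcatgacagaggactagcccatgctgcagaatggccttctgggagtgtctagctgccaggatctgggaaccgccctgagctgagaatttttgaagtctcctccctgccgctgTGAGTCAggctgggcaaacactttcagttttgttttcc
Myl9 (chr2:156775214-156775463, plus strand): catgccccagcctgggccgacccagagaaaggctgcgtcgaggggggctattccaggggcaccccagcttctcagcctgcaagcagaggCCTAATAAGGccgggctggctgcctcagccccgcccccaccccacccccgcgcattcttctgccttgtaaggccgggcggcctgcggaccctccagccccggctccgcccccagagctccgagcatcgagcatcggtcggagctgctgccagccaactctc
Ldhb (chr6:142507958-142508207, minus strand): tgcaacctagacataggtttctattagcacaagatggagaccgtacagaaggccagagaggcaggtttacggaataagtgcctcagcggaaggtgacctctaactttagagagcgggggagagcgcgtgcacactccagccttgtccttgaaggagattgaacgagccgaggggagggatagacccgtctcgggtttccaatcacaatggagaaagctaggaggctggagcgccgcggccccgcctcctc

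The largest shared rises were ranked by the smallest change of the 3 lines, so their sizes describe how they were chosen. They include genes of metabolism, patterning and signalling: Ldhb (the B subunit of lactate dehydrogenase), Akr1c14 (a hydroxysteroid dehydrogenase), Msra (an enzyme that repairs oxidised methionine), Hoxb6 and Foxd1 (homeobox and forkhead transcription factors), Cacna1h (a T-type calcium channel), Txlnb (a taxilin of muscle), Ly9 (a lymphocyte receptor of the SLAM family), Klhl6 (a kelch protein of B cells), Map3k7cl, Lekr1 and Proser2. Their mean log2 changes ran from 1.73 (Akr1c14) to 3.07 (Hoxb6), and all 12 were also called in each line after local centring, which subtracts the median shift of the regions within 500000 bp. Regions with fewer than 10 such neighbours were left uncentred. Where 3 changes are given without names, they are those of PTC1, PTC2 and LD in this order.

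At the Ldhb start site (chr6:142507374-142508499, centre 20 bp from the start), the promoter printed above lay in a region that read 94, 158 and 137 in WT. It read 761, 792 and 862 in PTC1, 565, 512 and 477 in PTC2, and 458, 343 and 455 in LD. Every mutant library was above every WT library, and PTC1 was above the other mutants. The mean change was 2.13 (SE 0.108, limma adjusted p = 1.2e-15), a 4.37-fold rise on the log2(value + 1) scale. The order was PTC1, PTC2, LD and WT, with PTC2 and LD close to each other (lowest PTC2 library 477, highest LD library 458).

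Map3k7cl (chr16:87552865-87553366) read 9, 12 and 23 in WT, 116, 120 and 161 in PTC1, 71, 97 and 74 in PTC2, and 128, 139 and 127 in LD. PTC1 and LD overlapped and PTC2 was lower than both. The mean change was 2.94 (95% interval 2.54 to 3.34, adjusted p = 2.95e-13).

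Akr1c14 (chr13:4046255-4047230, 2268 bp from the start) came closest of the 12 to one size in all lines. Its values were 61, 70 and 49 in WT, 221, 235 and 203 in PTC1, 200, 166 and 167 in PTC2, and 205, 210 and 192 in LD. The line changes were 1.87, 1.56 and 1.75, and the F test among the mutants gave an adjusted p of 0.127. Msra, 3461 bp from its start site, changed by 2.62, 2.37 and 1.99 (F test adjusted p = 0.0677).

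The transcription factor genes rose very unequally. Foxd1 (chr13:98349581-98350369, 4267 bp from the start) read 19, 18 and 14 in WT and 363, 375 and 387 in PTC2, but 104, 87 and 79 in PTC1 and 46, 66 and 62 in LD. The 4 groups did not overlap, and the line changes were 2.34 (PTC1), 4.40 (PTC2) and 1.71 (LD). Hoxb6 (chr11:96292303-96292540) was highest in PTC1, with 67, 60 and 55. It read 1, 4 and 2 in WT, while LD (19, 13 and 15) and PTC2 (14, 24 and 13) overlapped. Cacna1h (4.24) and Klhl6 (3.61) changed most in PTC2, Lekr1 (3.04) in PTC1, and Proser2 (3.90) and Txlnb (3.12) in LD. Proser2 lost its call in all 3 lines without WT replicate 3 (smallest change 0.72, adjusted p = 0.0619).

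**Figure D2:**
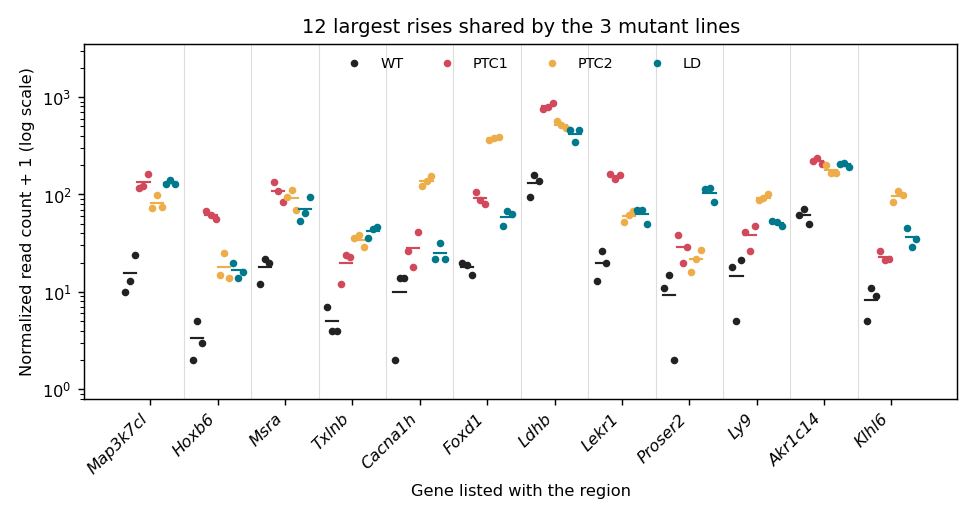
Normalized read count + 1 on a log axis for each library (points) and the group mean (bars) at the 12 named regions that rose in all 3 mutant lines, by listed gene. All 9 mutant libraries lie above the 3 WT libraries at each gene, with PTC2 above the other mutants at Foxd1 and PTC1 above them at Hoxb6, while at Akr1c14 the mutants lie at 166 to 235.

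The largest shared falls held regions near Slitrk6 (a neuronal leucine-rich membrane protein), Moxd2 (a monooxygenase), Aff2 (a nuclear protein of the AFF family), Mx1 (an interferon-induced antiviral GTPase), Lce3c (a cornified envelope protein of skin), Olfr1323 (an odorant receptor), Ica1, Ccr3 (a chemokine receptor), Nnmt (nicotinamide N-methyltransferase), Slc43a3 (a solute carrier), Hhip (an inhibitor of Hedgehog ligands) and Podxl (the sialomucin podocalyxin). Their mean log2 changes ran from -4.59 (Slitrk6) to -1.96 (Olfr1323), and all 12 were called in each line after local centring as well. At Slitrk6, Aff2 and Olfr1323 the mean change was the same to 2 decimals after it, as in regions left uncentred. For these genes the kept call is therefore no test.

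The region at the Slitrk6 start (chr14:110754974-110755265, 29 bp from the start), overlapping the first promoter printed above, was nearly closed in all mutants. It read 69, 58 and 52 in WT, 5, 5 and 0 in PTC1, 2, 0 and 6 in PTC2, and 0, 4 and 0 in LD. The mutants overlapped fully, and the F test among them gave an adjusted p of 0.439. The mean change was -4.59 (95% interval -5.81 to -3.37, adjusted p = 1.89e-07).

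Aff2 on the X chromosome (chrX:69360073-69360802) read 126, 187 and 182 in WT, 17, 13 and 15 in PTC1, 7, 11 and 10 in PTC2, and 36, 20 and 19 in LD. All mutant libraries were far below WT, PTC2 being the lowest. The mean change was -3.36, while the X chromosome as a whole had a median change of -0.34. Local centring left the value at Aff2 the same to 2 decimals, as it does in regions with fewer than 10 neighbours, which are not centred. The unchanged value is therefore no test of the fall against its surroundings.

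Podxl (chr6:31563535-31564292, 67 bp from the start) read 489, 482 and 471 in WT. It read 184, 192 and 175 in PTC1, 59, 59 and 51 in PTC2, and 149, 171 and 172 in LD. PTC2 was lowest and PTC1 did not overlap LD. The mean change was -2.00 (SE 0.101, adjusted p = 1.08e-15). Nnmt (chr9:48609663-48610192) was also lowest in PTC2, with WT at 409 to 487, LD at 135 to 177, PTC1 at 82 to 121 and PTC2 at 60 to 61. Its changes were -1.48 in LD, -2.13 in PTC1 and -2.86 in PTC2.

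Hhip fell by 2.33 (PTC1), 2.33 (PTC2) and 1.42 (LD). Ica1 went the other way, with LD lowest (18, 3 and 14) and PTC1 highest of the mutants (35, 49 and 45), beside 126 to 165 in WT. Olfr1323, also on the X chromosome, fell by 1.81 (PTC1), 1.91 (PTC2) and 2.15 (LD), with an F test adjusted p of 0.344.

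**Figure D3:**
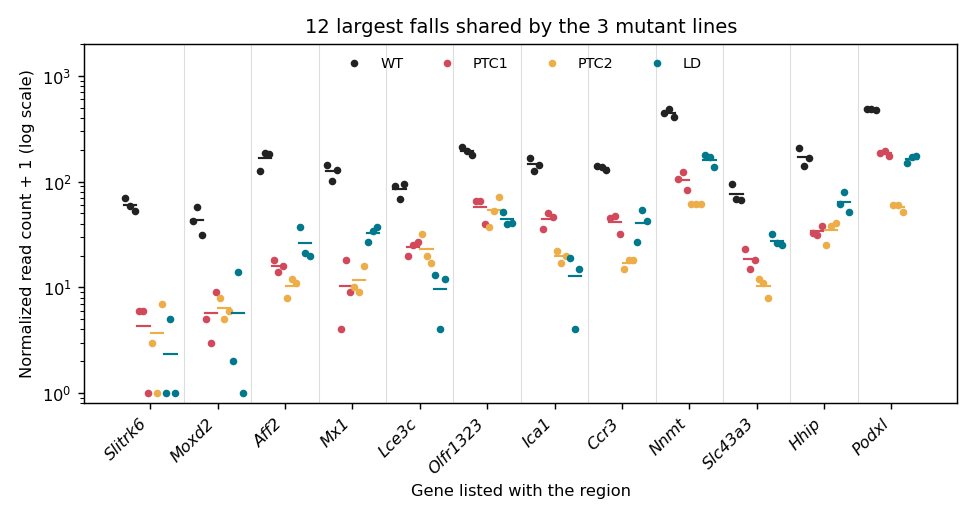
Normalized read count + 1 on a log axis for each library (points) and the group mean (bars) at the 12 named regions that fell in all 3 mutant lines, by listed gene. WT lies above every mutant library at each gene, and at Slitrk6 the mutant libraries read 0 to 6.

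Regions with no listed gene held larger changes still. On chromosome 18, a region (chr18:48633581-48633775) read 43, 39 and 38 in WT. It read 0, 0 and 1 in PTC1, 0 in each PTC2 library, and 0, 1 and 0 in LD (adjusted p of the mean = 9.05e-09), so all 9 mutant libraries were at 0 or 1. A region on chromosome 6 (chr6:76390047-76390380) read 80 to 82 in WT and 0 to 8 in the mutants, and one on chromosome 4 (chr4:27571869-27572214) read 64 to 99 in WT and 0 to 9. One of the 3 largest rises with no gene was on chromosome 1 (chr1:159121863-159122641). It read 21, 19 and 19 in WT, 174, 153 and 183 in PTC1, 411, 424 and 455 in PTC2, and 160, 175 and 171 in LD. PTC1 and LD overlapped and PTC2 was above both (mean change 3.49, SE 0.114, adjusted p = 2.31e-19).

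Of the other actin genes, 3 had a region listed at their start site. Actg2, which encodes smooth muscle gamma-actin, rose in all 3 lines but by very different amounts. Its start site region (chr6:83535961-83536888) read 16, 36 and 29 in WT, 430, 415 and 369 in PTC1, 353, 331 and 339 in PTC2, and 35, 54 and 40 in LD. LD overlapped WT, and the premature stop lines were far above both. The line changes were 3.93, 3.68 and 0.70, and the mean of 2.77 therefore describes none of the lines. Without WT replicate 1 the LD change was 0.38 (adjusted p = 0.0794). The regions upstream (chr6:83541748-83542936) and inside the gene (chr6:83533791-83534017) were called in both premature stop lines and not in LD, where they changed by 0.05 and -0.40.

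Acta2, which encodes smooth muscle alpha-actin, changed at its flanks more than at its start. The start site region (chr19:34254222-34256027) changed by 0.10, 0.31 and 0.16 and was not called in PTC1. Within 10000 bp upstream, a region (chr19:34265495-34266122) read 358, 404 and 413 in WT, 669, 728 and 674 in PTC1, 970, 1064 and 981 in PTC2, and 704, 768 and 722 in LD. Every mutant library exceeded every WT library, with PTC2 highest and PTC1 and LD overlapping. The mean change was 1.03 (SE 0.064, adjusted p = 8.19e-14), and 1.00 after local centring. Inside the gene, 2 weaker regions were also higher in all 3 lines. One (chr19:34240522-34240851) changed by 0.94, 2.21 and 1.86, and the other (chr19:34241387-34241746) by 0.63, 0.54 and 0.63, the latter without the call in all 3 when PTC2 replicate 3 was left out (adjusted p = 0.0645).

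At Actb, the beta-actin gene, the start site region (chr5:142905667-142907273) read 3305, 3339 and 3350 in WT. It read 3009, 2885 and 3206 in PTC1, 3123, 2916 and 2901 in PTC2, and 2979, 2706 and 2713 in LD. Every mutant library was lower than every WT library, with small log2 changes of -0.14, -0.16 and -0.25. The call in all 3 lines was lost when libraries were scaled to the same median (smallest change 0.07, adjusted p = 0.369), and on leaving out replicate 2 or 3 of WT or replicate 1 or 2 of PTC1 (adjusted p = 0.0537 to 0.137). A weaker region (chr5:142912806-142913053) upstream of Actb read 107, 107 and 146 in WT and 49 to 72 in the mutants. It changed by -0.92, -1.19 and -1.11, with no difference called among the lines (F test adjusted p = 0.385). Near Acta1 and Actc1, the skeletal and cardiac actin genes, 4 regions lay within 10000 bp and none was called in 1 direction in all 3 lines. Of these, a region near Acta1 (chr8:123883230-123883886) changed by -1.41, -0.44 and 0.29.

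Gene lists were read at the region nearest each gene's start site. Over all 12337 genes with such a region, 25.7% were higher and 22.7% lower in the mean of the mutants. In all 3 lines 516 (4.18%) were higher and 478 (3.87%) lower. Of 366 list genes with a region, 17 (4.64%) were higher and 19 (5.19%) lower in all 3 lines, shares close to those of all genes.

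Among the 27 smooth muscle contractile genes and MRTF-SRF targets, 12 were higher and 4 lower in the mean, with a median change of 0.12 beside 0.019 over all genes. In all 3 lines 4 were higher (Actg2, Cnn1, Myl9 and Jph2) and 0 lower, beside 4.18% and 3.87% of all genes. Jph2, which encodes a junctophilin of muscle membranes, read 120, 120 and 140 in WT, 446, 425 and 417 in PTC1, 516, 531 and 471 in PTC2, and 340, 316 and 287 in LD. Its groups did not overlap, and the mean change was 1.68 (SE 0.084, adjusted p = 7.2e-16). Cnn1, which encodes the actin-binding protein calponin, read 113, 159 and 125 in WT and 200, 205 and 212 in LD. PTC1 (314, 362 and 388) and PTC2 (336, 372 and 353) overlapped above both, with changes of 1.42 and 1.43 beside 0.65 in LD. Myl9, a regulatory light chain of myosin whose CArG box is shown above, read 633, 651 and 722 in WT and 877, 707 and 851 in PTC1. PTC2 (1194, 1170 and 1198) and LD (1090, 1033 and 1040) were higher still, and only PTC1 overlapped WT. The summed value of the list was 26944 to 27820 in the WT libraries, 29030 to 30179 (PTC1), 32826 to 34568 (PTC2) and 23962 to 25812 (LD).

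In the machinery of actin filaments, the genes called in all 3 lines were all lower. Over all genes, 4.18% were higher and 3.87% lower in all 3 lines. Of 25 nucleation and elongation genes 1 was lower in all 3 lines (the formin Diaph1), of 23 monomer binding, capping and severing genes 2 (Svil and Limk1), and of 27 cross-linking, tropomyosin and non-muscle myosin genes 2 (Flnc and Fscn1). None of these 3 lists had a member higher in all 3 lines. Flnc, a filamin, read 2128, 2165 and 1979 in WT, 1413, 1725 and 1809 in PTC1, 1846, 1724 and 1624 in PTC2, and 1075, 993 and 929 in LD. The mutants were all below WT, LD the most (-1.07). Fscn1, which bundles filaments, changed by -0.24, -0.22 and -0.33. Diaph1 (-0.45 in the mean) and Svil (-0.29, turning to 0.145 after chromosome centring) lie on chromosome 18, where the median region fell by 0.44. Limk1, a kinase that inactivates cofilin, changed by -0.16, -0.14 and -0.43. The calls in all 3 lines at Diaph1, Svil, Limk1, Flnc and Fscn1 were lost with scaling to the same median. That of Diaph1 was also lost without WT replicate 3 (adjusted p = 0.075) or PTC2 replicate 2 (0.0511), and that of Limk1 without WT replicate 1 (0.0515) or 2 (0.161). Daam2, another formin called higher in the mean, moved in opposite directions, with 871, 887 and 924 in PTC1, 317, 292 and 271 in PTC2, and 110, 88 and 80 in LD beside 109 to 138 in WT.

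Of 25 integrin and focal adhesion genes, only Itga11, a collagen-binding integrin chain, was called in all 3 lines. It read 65 to 75 in WT, against 160 to 171 (PTC1), 123 to 135 (PTC2) and 96 to 114 (LD), with no overlap between groups, but lost its call in all 3 lines with local centring (smallest change 0.34, adjusted p = 0.0629). None of 20 YAP-TEAD genes was called in all 3 lines.

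Of 20 interferon response genes, 4 were higher and 7 lower in the mean, with a median of -0.07. In all 3 lines 5 were lower (Ifit1, Mx1, Mx2, Usp18 and Xaf1) and 0 higher, beside 3.87% and 4.18% of all genes. The 5 lower genes act in the antiviral state, Usp18 as a brake on interferon signalling. Mx1 (chr16:97461155-97461560) read 144, 101 and 129 in WT, 3, 17 and 8 in PTC1, 9, 8 and 15 in PTC2, and 26, 33 and 36 in LD. Its neighbour Mx2 read 733, 732 and 761 in WT, 165, 200 and 164 in PTC1, 299, 238 and 325 in PTC2, and 561, 486 and 523 in LD. At both genes LD kept the most of the mutants. They share a segment of chromosome 16, and with local centring the mean change at Mx2 was -0.37 instead of -1.32, with the call in all 3 lines lost (adjusted p = 0.638), while Mx1 kept its call at -2.11. Usp18 was the most even, with 914 to 999 in WT, against 615 to 709 (PTC1), 605 to 635 (PTC2) and 672 to 711 (LD) (mean change -0.55, F test adjusted p = 0.1). Its call in all 3 lines was lost with either centring. Xaf1, with the AP-1 match shown above, read 261 to 309 in WT, against 94 to 114 (PTC1), 185 to 217 (PTC2) and 195 to 239 (LD), and its call in all 3 lines ended on leaving out replicate 1 of either WT (adjusted p = 0.0625) or LD (adjusted p = 0.0629). Ifit1 had group means of 151 in WT, against 54.67 (PTC1), 77.67 (PTC2) and 111.7 (LD), and whether its call holds under other processing was not checked. The summed value of the list overlapped between the groups, at 10692 to 11208 in WT and 10221 to 10964 in the mutants.

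The fibroblast and extracellular matrix list went both ways. Of 39 genes, 13 were higher and 11 lower in the mean. In all 3 lines 5 were higher (Postn, Lum, Loxl1, Pdgfra and Mmp2) and 2 lower (Tnc and Mmp3), beside 4.18% and 3.87% of all genes. Pdgfra, a PDGF receptor and fibroblast marker, read 246, 309 and 259 in WT, 439, 529 and 535 in PTC1, 681, 477 and 475 in PTC2, and 523, 394 and 434 in LD. All mutant libraries were above WT and the mutants overlapped (mean change 0.87, adjusted p = 2.66e-08, F test adjusted p = 0.136). The matrix metalloprotease genes split. Mmp2, a gelatinase, rose by 1.53, 0.67 and 0.57. Mmp3, or stromelysin, whose AP-1 match is shown above, read 813, 867 and 892 in WT, 45, 57 and 59 in PTC1, 542, 498 and 484 in PTC2, and 682, 683 and 789 in LD. Its fall was thus mostly that of PTC1 (-3.98), with -0.26 in LD, a call lost with local centring (smallest change 0.143, adjusted p = 0.361) and without WT replicate 2 or 3 or LD replicate 1 or 2 (adjusted p = 0.0991 to 0.134). Postn, which encodes periostin, was low throughout, at 0 to 8 in WT, against 19 to 38 (PTC1), 57 to 75 (PTC2) and 6 to 16 (LD), and lost its call in all 3 lines without WT replicate 2 (smallest change 0.643, adjusted p = 0.199) or LD replicate 2 or 3 (adjusted p = 0.0545 and 0.0508). Loxl1, an enzyme of elastic fibre formation, changed by 0.26, 0.22 and 0.28. Lum, the proteoglycan lumican, had group means of 9.333 in WT, against 46.33 (PTC1), 21.67 (PTC2) and 19.67 (LD). Tnc (tenascin-C) changed by -0.43, -0.20 and -0.20. Whether the calls of Loxl1, Lum and Tnc hold under other processing was not checked.

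Of 28 nonsense-mediated decay and mRNA decay genes, 3 were higher in all 3 lines and 1 lower, beside 4.18% and 3.87% of all genes. Edc4, a scaffold of the decapping complex, changed by 0.46, 0.56 and 0.36, and Exosc2, an exosome subunit, by 0.23, 0.22 and 0.42 (a call lost without WT replicate 1 or 3, PTC1 replicate 1 or 3, or PTC2 replicate 2 or 3, with adjusted p = 0.0549 to 0.214). Edc3, another decapping factor, changed by 0.24, 0.27 and 0.22, though its mean was -0.011 after local centring. Leaving out WT replicate 2, or PTC1 replicate 3, or LD replicate 1 or 3 ended its call in all 3 lines (adjusted p = 0.0547 to 0.135). Dcp1b, a decapping coactivator, read 1014 to 1129 in WT, against 537 to 674 (PTC1), 785 to 874 (PTC2) and 776 to 846 (LD), with a mean change of -0.50. The call in all 3 lines was lost at Edc4 with local centring (smallest change 0.149, adjusted p = 0.167) and at Dcp1b with chromosome centring (0.004, adjusted p = 0.97). Of 15 genes of the COMPASS histone methylation complexes, Rbbp5 was higher (0.24, turning to -0.036 after local centring) and Cxxc1, on chromosome 18, lower (-0.54, and -0.03 after local centring). Rbbp5 lost its call in all 3 lines without WT replicate 1 or 2 or LD replicate 1 or 3 (adjusted p = 0.0567 to 0.114).

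Of 22 immediate early genes, Egr1 alone was called in all 3 lines. It read 5806, 5942 and 5502 in WT, 3454, 3798 and 3587 in PTC1, 4903, 4497 and 4612 in PTC2, and 3504, 3108 and 3379 in LD. It lies on chromosome 18, and its call in all 3 lines was lost after chromosome centring (smallest change 0.01, adjusted p = 0.833). Among 28 cell cycle genes only Top2a, the DNA topoisomerase of dividing cells, was called in all 3 lines (0.37, 0.48 and 0.23, lost with scaling to the same median). Among 19 p53 targets only Eda2r, a TNF receptor family member on the X chromosome, was. It read 806 to 975 in WT, against 588 to 685 (PTC1), 451 to 468 (PTC2) and 56 to 63 (LD). Of 12 housekeeping genes, 2 were higher and 4 lower in the mean and 0 in all 3 lines.

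Markers of other cell types went both ways in the calls in all 3 lines, in which 4.18% of all genes were higher and 3.87% lower. Of the 7 lists, skeletal and cardiac muscle had 1 of 3 higher in all 3 lines (Myf6), cartilage and bone 1 of 7 lower (Spp1), endothelium 1 of 6 lower (Sox18), and blood 1 of 6 higher (Tal1). Adipocyte (7), epithelial (6) and neural (7) markers had 0. The regions read lay 2002 bp (Sox18), 3730 bp (Tal1) and 5099 bp (Myf6) from the start site. Sox18 read 308 to 360 in WT and 154 to 226 in the mutants, and Tal1 118 to 137 in WT and 198 to 251 in the mutants. Spp1, which encodes the matrix protein osteopontin, changed by -0.53, -1.55 and -0.38, and lost its call in all 3 lines with local centring (smallest change 0.181, adjusted p = 0.21) and without LD replicate 3 (adjusted p = 0.0602). Myf6, a muscle regulatory factor, was near 0 in WT (1 to 4) and low in PTC2 and LD (3 to 12), with 91 to 109 in PTC1. PTC2 overlapped WT, and the call in all 3 lines was lost without PTC2 replicate 3 (smallest change 1.09, adjusted p = 0.0576). The summed value of the neural list was 2083 to 2255 in WT, against 2782 to 3004 (PTC1), 1646 to 1839 (PTC2) and 2178 to 2299 (LD). That of the adipocyte list was 3149 to 3356 in WT, against 2314 to 2653 (PTC1), 2869 to 2966 (PTC2) and 3811 to 4140 (LD). The part of other cell types in the results was not tested.

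**Figure D4:**
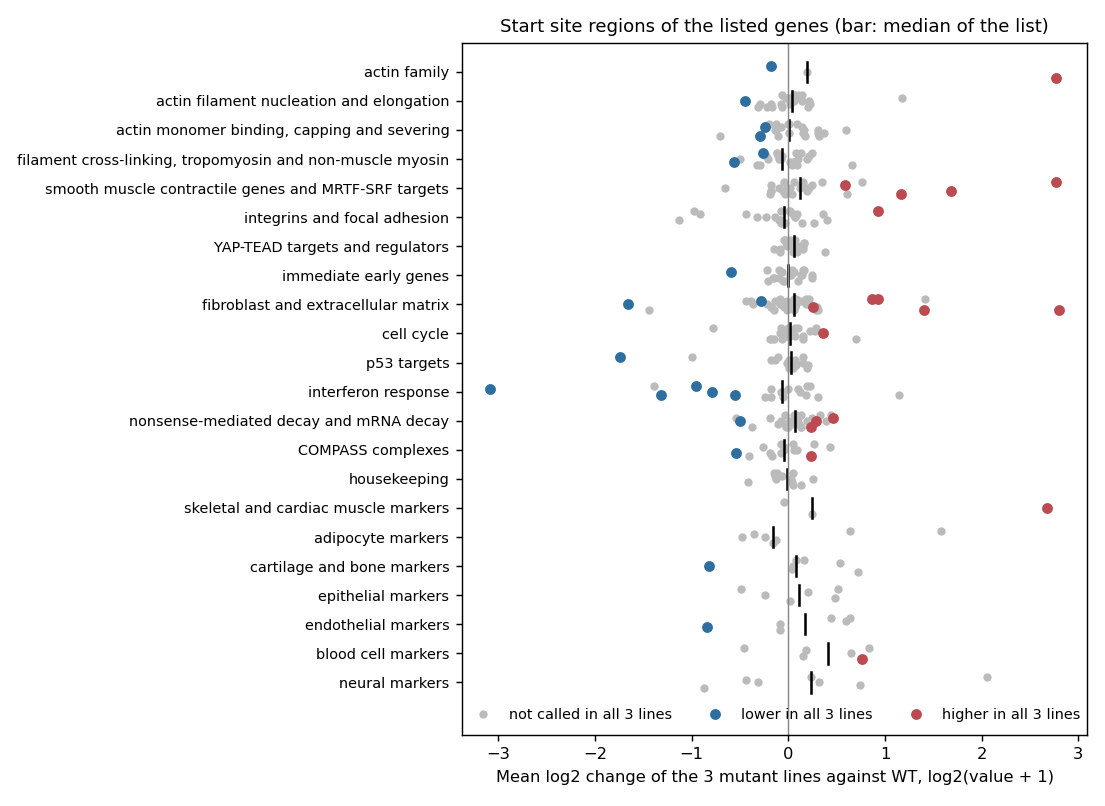
Mean log2 change of the 3 mutant lines against WT (x axis) at the region listed nearest the start site of each list gene (points). Lists are on the y axis, with the list median as a bar and the genes called in all 3 lines in colour. List medians lie near 0, at most 0.42 away, while single genes such as Actg2 (2.77) and Mx1 (-3.08) stand far out.

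The shared changes were uneven over the genome. On chromosome 18, 636 of 2337 regions (27.2%) were lower in all 3 lines, 12.3% of all such regions, and 24 (1.03%) were higher. The median change over this chromosome was -0.45 (PTC1), -0.28 (PTC2) and -0.55 (LD). On the X chromosome 304 regions (14.0%) were lower and 34 (1.57%) higher, with medians of -0.11, -0.27 and -0.52. The higher regions took the larger share on chromosomes 1, 7, 8, 10, 11, 15 and 17, the most on 8 and 11 with 8.82% and 8.65%. The medians of all 3 lines were above 0 on each of these (0.20, 0.25 and 0.09 on chromosome 8) except chromosome 15, where LD was at -0.17. Without chromosomes 18 and X, 3990 regions remained higher and 4219 lower in all 3 lines.

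Neighbours also moved together within chromosomes. Of the regions higher in all 3 lines 90.0% had another such region within 500000 bp, and of those lower 92.8%. The shares that the density of regions alone would give were not computed, so these shares do not show joint movement by themselves. The median shift of the surrounding regions was 0.13 at the higher regions, -0.15 at the lower ones and 0.0 over all regions. It was -0.2 or less at 41.2% of the lower regions, beside 16.3% of all regions, and 0.2 or more at 33.6% of the higher regions, beside 13.5%. After local centring 2222 (54.9%) of the higher and 2702 (52.4%) of the lower regions kept their call in all 3 lines, and after chromosome centring 73.4% and 67.4% did. Only 4020 of the 4048 higher and 5018 of the 5159 lower regions had the 10 neighbours that local centring needed. The others were left uncentred and could count among those kept. Differences in DNA copy number between the lines, which would move whole segments, were not measured, and their part in the result was not tested.

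**Figure D5:**
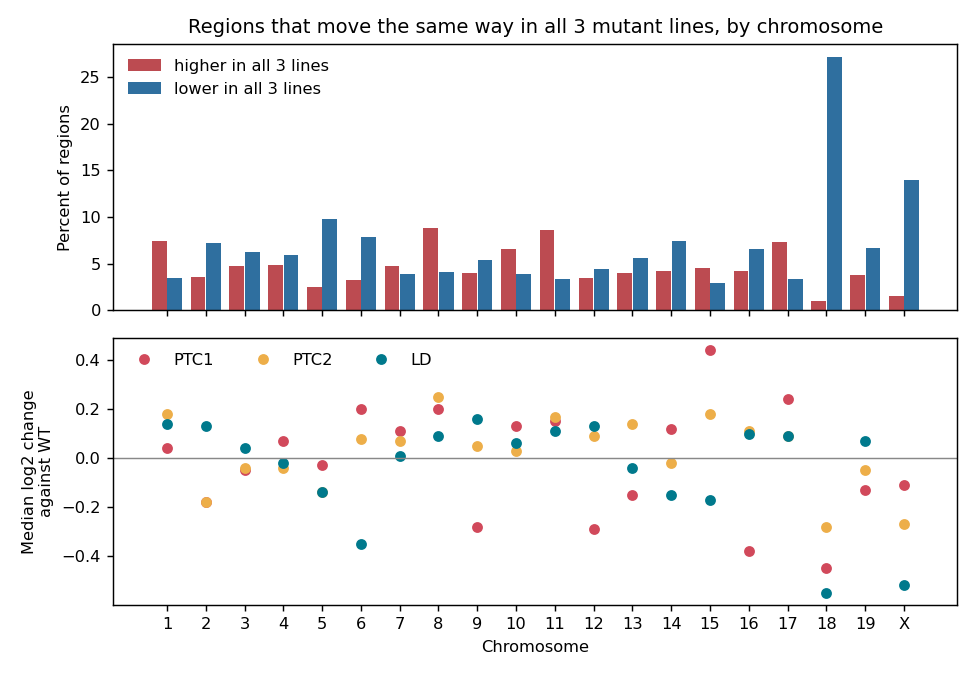
Percent of the regions of each chromosome called higher or lower in all 3 mutant lines (upper plot, y axis in percent) and the median log2 change of each line against WT (lower plot). Chromosome 18 stands out with 27.2% of its regions lower and a median below 0 in every line, followed by the X chromosome with 14.0%.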

How the data were processed

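ATAC-seq libraries of NIH/3T3 cells (4 genotypes, 3 each) were compared. Per the submitters' processing notes, DESeq2 1.30.1, Picard 2.25.5, STAR 2.7.10a and Trimmomatic 0.39 were used with mm10, their roles unstated. For the peak caller and any Tn5 shift, nothing is stated in the sources used here. The deposited values are scores: by their spacing, read counts that the authors scaled by 1 factor per library and rounded, so a count model was not used. The table also lists genes and distances to start sites.

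The model, run in R 4.3.3 (limma 3.58.1), took log2(value + 1) with 4 group means for the 12 libraries and trended empirical Bayes. Tests were two-sided on regions whose mean reached 5, and calls needed a Benjamini-Hochberg adjusted p under 0.05 across those regions. Fold changes are on the log2(value + 1) scale and understate the changes of weak regions. The fit was tested on simulated data, in which most regions, unlike here, were left unchanged. Of 50 regions given a shared log2 change of 0.5, 44% were called in the mean and 14% in all 3 lines. With a change of 1.0 these shares were 86% and 82%. The calls in all 3 lines can thus miss small shared changes. Depth was estimated from the gaps in each column's whole numbers, and intervals are 95% intervals of the fit that cover the spread between libraries.

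The members, the 22 gene lists (440 genes) and the tests were chosen with earlier results of these data known. Named were the 12 largest rises and falls with a gene and the 3 largest each way without one, by the smallest of the 3 line changes. For these, the mutant and WT libraries could not overlap, the higher side needed a mean of 20, and 1 region was kept per gene and per 100000 bp. Also named were regions of actin genes or within 10000 bp of them, and up to 4 members of each list. Members of a list called in all 3 lines beyond these (Ifit1, Loxl1, Lum and Tnc) were named after their values were seen, and their calls were not followed through the alternatives. Some genes of the lists are not reported here. Promoter motifs were searched in RefSeq sequences, counting a promoter where at least 150 bp lay under a region. Alternatives were other scalings, filters, pseudocounts, centring by chromosome or neighbourhood, a replicate block, line means, no trend, a stricter threshold and leaving out each library.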

Additional observations from a re-analysis of the deposited data

Results flagged for a closer look

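At 72 of the named regions the 3 mutant lines differed in their change against WT by the moderated F test (limma, adjusted p under 0.05), a test called in 83.2% of all regions. The values below are the gap between the highest and the lowest line on the log2 scale.

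Among the shared rises the gap was 0.71 at Map3k7cl, 1.9 at Hoxb6, 1.15 at Txlnb, 2.47 at Cacna1h, 2.69 at Foxd1, 0.95 at Ldhb, 1.37 at Lekr1, 2.29 at Proser2, 1.32 at Ly9, 2.07 at Klhl6, 1.24 at chr16:57873752-57873974 and 1.34 at chr1:159121863-159122641. Among the shared falls it was 1.29 at Aff2, 1.9 at Mx1, 1.48 at Lce3c, 2.06 at Ica1, 1.27 at Ccr3, 1.38 at Nnmt, 1.43 at Slc43a3, 0.9 at Hhip and 1.69 at Podxl. The lines at these genes moved in the same direction and differed in size.

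Of the actin regions, the gap was 3.22 at the Actg2 start site, 2.84 inside Actg2, 2.46 upstream of it and 0.54 at its 3′ end (chr6:83512300-83512759), and 0.74 at the neighbouring Dguok. Near Acta1 it was 1.7 (chr8:123883230-123883886), 0.37 (chr8:123884698-123885121) and 0.8 (chr8:123887473-123888515), and near Actc1 1.65. At Acta2 it was 0.21 at the start site, 0.54 upstream, 1.27 in one region inside the gene (chr19:34240522-34240851) and 0.7 in another (chr19:34243936-34244552). At a region listed with Actb, inside 10000 bp of its start site region (chr5:142909806-142910018), it was 0.49.

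Among the list genes, gaps of 1 or more were 5.19 at Sox2, 3.72 at Mmp3, 3.56 at Myf6, 3.38 at Eda2r, 3.27 at Daam2, 3.22 at Lpl, 3.07 at Krt5, 2.44 at Postn, 2.13 at Itga2, 1.72 at Cdkn2b, 1.57 at Mx2, 1.17 at Spp1, 1.08 at Xaf1 and 1.06 at Erg. The largest of these, Sox2, is the case of a mean set by a single line. Smaller gaps were 0.96 at Mmp2, 0.93 at Comp, 0.92 at Pgk1, 0.86 at Pparg, 0.79 at Flnc, 0.78 at Cnn1, 0.69 at Jph2, 0.66 at Ankrd1, 0.64 at Itga11, 0.6 at Ptprc, 0.59 at Cxxc1, 0.58 at Diaph1, 0.55 at Myl9, 0.55 at Tubb3, 0.52 at Frmd6, 0.51 at Tbp, 0.49 at Egr1, 0.4 at Dcp1b, 0.37 at Sox18, 0.29 at Limk1, 0.27 at Egr2, 0.25 at Top2a and 0.13 at Cdkn1a.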

How the results depend on the processing

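At an adjusted p under 0.01, 2463 regions were higher in all 3 lines instead of 4048. With line means as the unit, 0 regions were higher and 0 lower in the mean (limma; 762 at an unadjusted p under 0.05). Of 95 named regions, 91 had been called in the mean, and all 91 lost that call. That fit has 4 values in place of 12 and takes its error from the spread between lines, and which of these ended the calls was not tested. The other counts stayed within 1.5 times under the alternatives run. Leaving out 1 library gave 16507 to 19476 regions higher and 20257 to 23133 lower in the mean, and 3532 to 3832 higher and 4275 to 5161 lower in all 3 lines. Without chromosomes 18 and X, chosen after seeing the data, the mean gave 19403 higher and 20452 lower. Libraries of the same replicate number were weakly alike across groups, since 11 of 12 libraries correlated best with one of their own number. The correlations of deviations were small, at -0.0044 to 0.0447 in 18 same-numbered pairs (median 0.0135, beside -0.0054 in the other pairs), with none over 0.1. With the replicate block 20014 and 23381 regions were called in the mean and 4127 and 5283 in all 3 lines. The direction turned at Svil (0.145) after chromosome centring. Directions turned after local centring at a region near Acta1 (chr8:123884698-123885121, -0.192), Dguok (-0.122), Svil (0.098), Egr2 (-0.061), Edc3 (-0.011) and Rbbp5 (-0.036); the cause was not tested. Of 65 named regions called in all 3 lines, 25 lost that call under some alternative. The line means, which give no call for each line, and the stricter threshold are not in this count. Among the 30 named by size Proser2 alone lost it. Those 30 were chosen for large changes in each line with no overlap of mutant and WT libraries, so their kept calls are no separate support. Local centring left regions with fewer than 10 neighbours unchanged, so it was no test of the calls there. Leaving out a single library ended the call in all 3 lines at Actb, Actg2, an Acta2 region, Diaph1, Limk1, Mmp3, Postn, Exosc2, Edc3, Rbbp5, Xaf1, Myf6, Spp1 and Proser2. How calls depend on depth was not tested, and 3 libraries a line limit the precision at every region.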

Other observations

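Some list genes were called in the mean of the 3 mutants although the change belonged to 1 or 2 lines. Sox2, a transcription factor of stem and neural cells, read 982, 986 and 1107 in PTC1, beside 19 to 29 in WT, 20 to 35 in PTC2 and 29 to 38 in LD, and its mean change was 2.06. Krt5, a basal keratin, read 920 to 936 in PTC2, beside 188 to 203 in WT, 200 to 213 in PTC1 and 88 to 126 in LD. Lpl, lipoprotein lipase, read 58 to 67 in PTC1, 4 to 10 in PTC2, 12 to 18 in LD and 1 to 13 in WT.

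Others were shared by the premature stop lines and not called in LD. Cdkn2b, a CDK inhibitor, read 1363 to 1473 in WT and 1391 to 1484 in LD, but 406 to 468 in PTC1 and 832 to 929 in PTC2. Itga2, an integrin chain, read 368 to 405 in WT and 424 to 478 in LD, but 96 to 104 in PTC1 and 162 to 180 in PTC2. Erg, an endothelial factor, read 391 to 458 in WT and 360 to 474 in LD, but 666 to 741 in PTC1 and 824 to 917 in PTC2.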
